A study of Mus musculus with 8 samples.

Results

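Six3, Lhx2, Otx1, En1, En2, Gbx2, Cdx1 and Cdx2 are 8 homeobox genes whose protein products mark positions along the head-to-tail axis of the embryo. They were chosen by symbol, as identity genes of this axis that lie outside the Hox clusters, and make up 8 of the 24318 gene symbols in the tables. The set was named for brain and hindbrain, but Cdx1 and Cdx2 mark more caudal tissue, the tail bud and prospective spinal cord, so the set is called axial identity genes here. Poly(A) RNA was sequenced in 4 groups of 2 libraries. The cells were the mouse embryonic stem cell (ESC) line E14 and neural progenitor cells (NPC) differentiated from it, each as wild type and as Wdr68 knockout. The tables list Wdr68 as Dcaf7, and its WD40-repeat protein is studied in this series as a partner of the Polycomb complex PRC1-AUTS2. The groups were wild-type ESC (E14-ESC), knockout ESC (Wdr68 KO-ESC), wild-type NPC (E14-NPC) and knockout NPC (Wdr68 KO-NPC). All ESC were kept with serum, LIF and inhibitors of Mek (PD0325901) and GSK3 (CHIR99021), on feeder fibroblasts or on gelatin. NPC came from embryoid bodies of 500 cells, which spent 2 days in hanging drops and 2 days in suspension without LIF or the inhibitors, and then 4 days with retinoic acid, at 5 mM as the label writes it. The labels do not say how the knockout was made, how many clones it rests on, or whether duplicate libraries came from separate cultures. The p-values therefore measure the spread between libraries, which may be technical.

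In the embryo the neural tube acquires regional identity from opposing signals. Anterior cells, shielded from Wnt, FGF and retinoic acid signals, express genes such as Six3, Lhx2 and the Otx genes. Otx2 and Gbx2 repress each other at the border of midbrain and hindbrain, where En1 and En2 are expressed and where Wnt1, Fgf8 and Pax2 act as the isthmic organizer. Caudally, the Cdx genes respond to Wnt, FGF and retinoic acid signals and help to switch on central and posterior Hox genes.

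Levels are FPKM, fragment numbers scaled to transcript length and library size, which can be compared between genes. Changes are differences in log2(FPKM + 1) ± standard error from limma with all 8 libraries, and adjusted p-values are Benjamini-Hochberg values over the 13318 genes that reached an FPKM of 1 in 2 or more libraries. A change on this scale understates the change in level of a low gene. Of the 8 genes, 5 passed this filter (Lhx2, En2, Gbx2, Cdx1 and Cdx2). Six3, Otx1 and En1 did not, and are given by their levels. The intervals deposited with the levels implied 5996686 to 7942662 fragments per library, and 19.0 to 28.3 fragments for a gene at an FPKM near 1. Dcaf7 fell from 13.3 ± 1.27 to 2.53 ± 0.383 (mean FPKM ± SD, n = 2) in ESC and from 28.4 ± 1.73 to 8.68 ± 0.443 in NPC, so some of its RNA remained in the libraries labelled as knockout. The 8 pluripotency markers summed to between 3394 and 3931 FPKM in the ESC libraries and to at most 44.7 in the NPC libraries. The 9 neural progenitor markers summed to 652 and 653 in wild-type NPC and to between 311 and 330 in knockout NPC, where Hes5, Fabp7 and Sox2 stood at or below 2.78. The same 9 markers summed to between 212 and 242 in the ESC libraries, so their sum does not measure progenitors alone. The label of neural progenitors therefore rested on weaker marker levels in the knockout.

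The axial identity genes were mostly low, and their order differed between the groups. In both ESC groups Cdx1 was the highest of the 8 and Gbx2 the second. In wild-type NPC Gbx2 was the highest and Lhx2 the second, while in knockout NPC Lhx2 was the highest, Cdx2 the second and Gbx2 the third. Knockout against wild-type NPC called 3 of the 5 tested genes, against 27.4% of all tested genes. Lhx2 was higher (as were 14.7% of all tested genes) and Gbx2 and En2 were lower (as were 12.7%). Knockout against wild-type ESC called 0 of the 5 in limma, where 0.248% of all tested genes were called, and 0 under each alternative. At an unadjusted p under 0.05 it held 1 of the 5, Cdx1, and 1686 of all 13318 tested genes. From ESC to NPC 4 of the 5 were called in each genotype, against 72.6% of all tested genes in wild type and 70.3% in knockout. Lhx2 rose in both (as did 41.6% in either genotype), and En2, Gbx2 and Cdx1 fell (31.1% in wild type and 28.8% in knockout).

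Over all 8 genes, the groups could be compared by whether their libraries overlapped. Between knockout and wild-type ESC, Cdx1 lay higher without overlap (19.5% of tested genes did) and Lhx2, En1, En2 and Gbx2 lower (24.7%), so 5 of 8 did not overlap against 44.2%. Between the NPC groups, Lhx2 and Cdx2 lay higher (36.6%) and En1, En2, Gbx2 and Cdx1 lower (27.0%), 6 of 8 against 63.6%. From ESC to NPC in wild type, Lhx2 lay higher (48.7%) and Otx1, En2, Gbx2 and Cdx1 lower (37.5%), 5 of 8 against 86.2%. In knockout, Lhx2 and Cdx2 lay higher (50.1%) and En2, Gbx2 and Cdx1 lower (35.5%), 5 of 8 against 85.6%. The background shares are over the tested genes, while 3 of the 8 genes were not tested. Some of these counts rest on narrow gaps. Between the ESC groups the closest Lhx2 pair was at 0.4447 and 0.4456 FPKM. In wild-type differentiation the closest Otx1 pair was at 0.07667 and 0.07670. Between the NPC groups Cdx1 counted as lower on 1 implied fragment in each wild-type library. The counts are therefore not read as a result about the set.

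**Figure D1:**
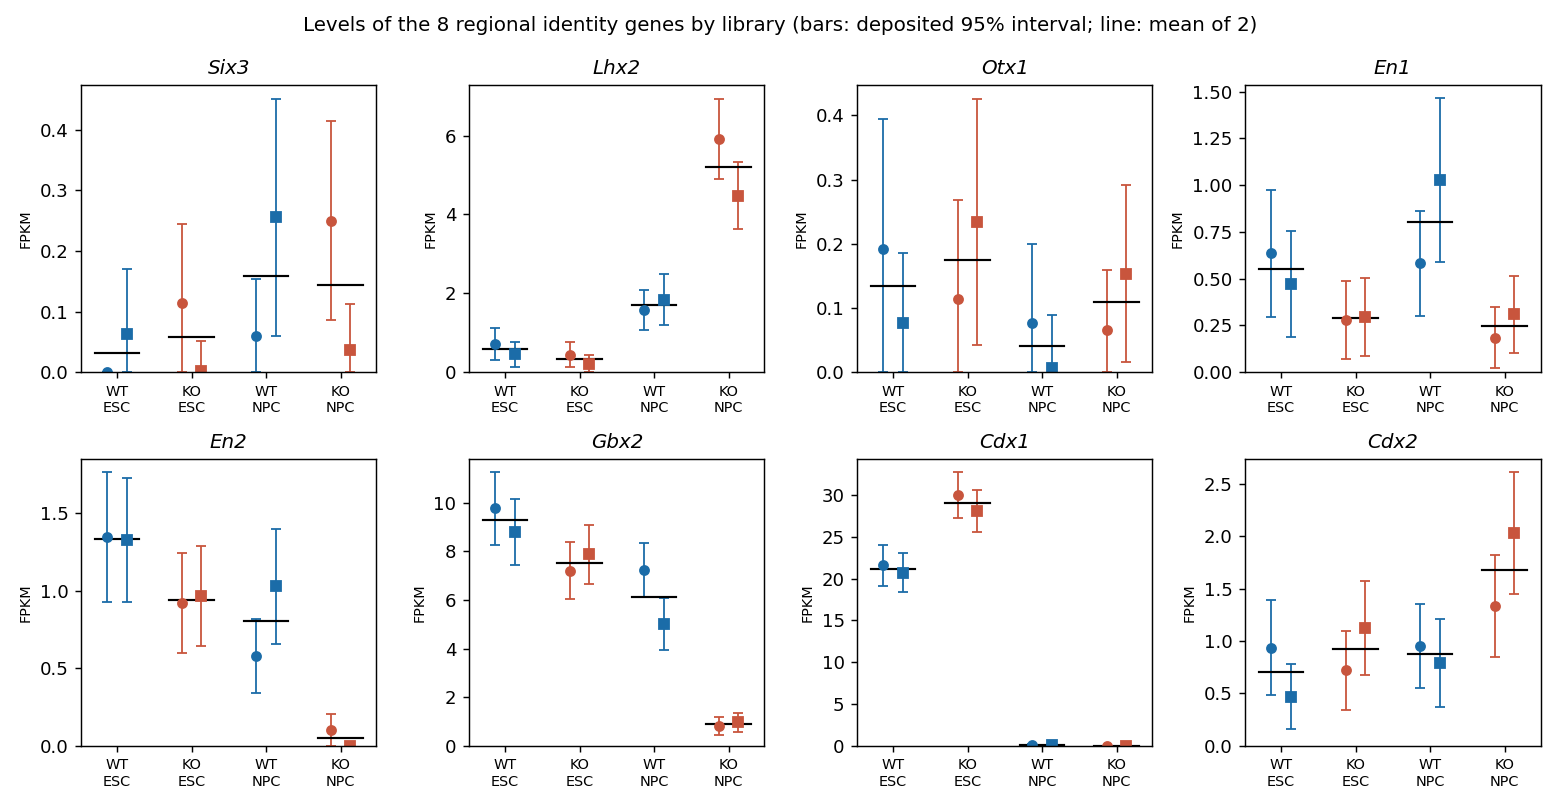
FPKM of each gene (y axis, its own scale per panel) in the 4 groups (x axis: wild type, WT, and knockout, KO, in ESC and NPC). Circles are replicate 1, squares replicate 2, bars the deposited 95% interval of each library and black lines the mean of 2. Gbx2 and En2 drop in knockout NPC, Lhx2 is highest there, and Cdx1 is near 0 in all 4 NPC libraries.

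Six3, a factor of the rostral forebrain and eye field, was close to 0 throughout (chromosome 17, 86020174 to 86025531, mm9 here and for the genes that follow). It stood at 0 and 0.0623 FPKM in the wild-type ESC libraries, 0.114 and 0.00125 in knockout ESC, 0.0601 and 0.256 in wild-type NPC and 0.250 and 0.0361 in knockout NPC. The groups overlapped in every comparison, and the highest of these levels rested on 6.83 implied fragments. The value in wild-type ESC replicate 1 was listed at 0. Without the filter on low values the change in knockout NPC was -0.02 ± 0.13 (limma adjusted p = 1).

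Otx1, expressed in the embryonic forebrain and midbrain, was about as low (chromosome 11, 21894767 to 21901654). It stood at 0.191 and 0.0767 FPKM in wild-type ESC and at 0.114 and 0.235 in knockout ESC. In NPC it stood at 0.0767 and 0.00558 in wild type and at 0.0656 and 0.154 in knockout. No library held more than 5.98 implied fragments of Otx1, so a fall could hardly be seen at this depth. A large rise could have been seen, and no library exceeded 0.235 FPKM. Knockout against wild-type NPC without the filter gave 0.09 ± 0.08 (limma adjusted p = 0.676).

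Lhx2, a LIM homeobox factor of the forebrain and eye that is also expressed in several tissues outside the nervous system, was the called gene of the set that was higher in knockout NPC (chromosome 2, 38194801 to 38225257). It stood at 0.715 and 0.446 FPKM in wild-type and 0.445 and 0.214 in knockout ESC, 1.59 and 1.83 in wild-type NPC and 5.92 and 4.48 in knockout NPC. Both knockout NPC libraries lay above every other library, and their deposited intervals lay above those of both wild-type NPC libraries. The ratio of the mean levels in knockout and wild-type NPC was 3.04, and 2.44 to 3.74 over the 4 pairs of libraries. The change was 1.19 ± 0.17 (limma adjusted p = 0.00254), and in ESC it was -0.25 ± 0.17 (adjusted p = 0.592). The difference between the knockout effects in NPC and ESC was itself called, at 1.44 ± 0.24 (adjusted p = 0.00881), a comparison that called 2 of the 5 tested genes and 16.8% of all tested genes (8.41% higher and 8.39% lower). From ESC to NPC, Lhx2 rose by 0.78 ± 0.17 in wild type (adjusted p = 0.0045) and by 2.22 ± 0.17 in knockout (adjusted p = 2.3e-05). Quantile normalization ended the call for wild type (0.18, adjusted p = 0.385).

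Gbx2, which sets the anterior hindbrain against the midbrain and is also expressed in naive ESC, had the largest knockout effect of the 5 tested genes in NPC on the log2(FPKM + 1) scale, which understates the low En2 and Cdx1 (chromosome 1, 91824537 to 91827751). It stood at 9.78 and 8.79 FPKM in wild-type ESC and at 7.21 and 7.88 in knockout ESC, and at 7.24 and 5.02 in wild-type NPC. In knockout NPC it stood at 0.806 and 0.964, on 17.98 and 22.8 implied fragments. Every deposited interval in knockout NPC lay below every interval of the other groups. The mean level was 6.93-fold lower than in wild-type NPC, and 5.21-fold to 8.98-fold lower over the pairs of libraries. The change was -1.90 ± 0.16 (limma adjusted p = 2.7e-04), a larger absolute change than in all but 2.65% of tested genes. In ESC the change was -0.27 ± 0.16 (adjusted p = 0.551), although both knockout libraries lay below both wild-type libraries. The difference between the knockout effects was -1.64 ± 0.23 (adjusted p = 0.00458). From ESC to NPC, Gbx2 fell by 0.54 ± 0.16 in wild type (adjusted p = 0.0195) and by 2.18 ± 0.16 in knockout (adjusted p = 2.2e-05). The call in wild type was lost without wild-type ESC replicate 1 (adjusted p = 0.0927), without wild-type NPC replicate 2 (adjusted p = 0.0980) and with no filter (adjusted p = 0.0617).

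**Figure D2:**
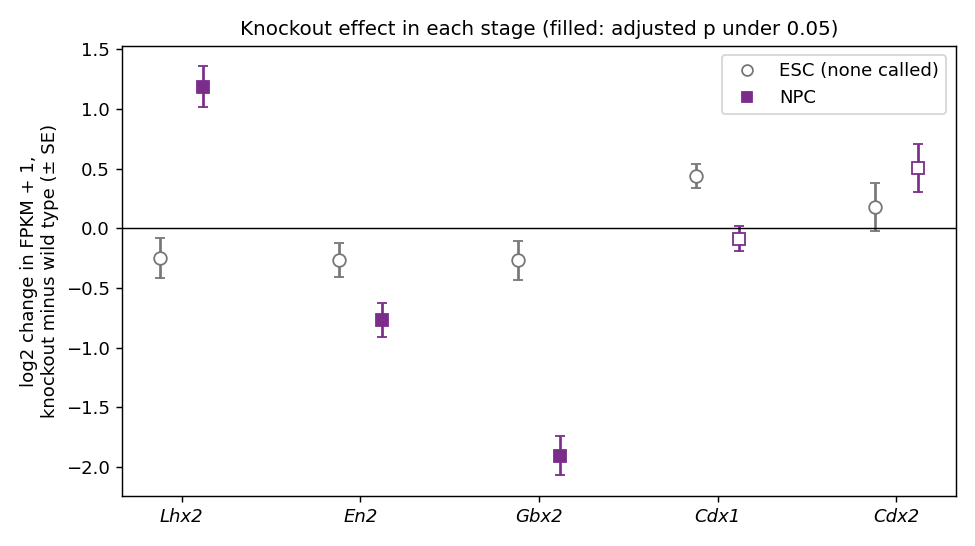
Knockout minus wild type in log2(FPKM + 1) (y axis, ± standard error) for the 5 genes that passed the filter, in ESC (grey circles) and NPC (purple squares), with filled symbols for an adjusted p under 0.05. Lhx2 lies at 1.19 and Gbx2 at -1.90 in NPC, while no ESC value was called.

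The sequences just upstream of Gbx2 and Lhx2 are shown because these are the genes of the set whose knockout effect differed between the stages. Each is the stretch of 250 bases before the RefSeq start (GRCm38.p6), 5′ to 3′ on the gene's strand, with CpG dinucleotides in capitals. The Gbx2 sequence is at chr1:89931177-89931426 on the minus strand. The Lhx2 sequence is at chr2:38339031-38339280 on the plus strand, before the first of its RefSeq starts.
Gbx2: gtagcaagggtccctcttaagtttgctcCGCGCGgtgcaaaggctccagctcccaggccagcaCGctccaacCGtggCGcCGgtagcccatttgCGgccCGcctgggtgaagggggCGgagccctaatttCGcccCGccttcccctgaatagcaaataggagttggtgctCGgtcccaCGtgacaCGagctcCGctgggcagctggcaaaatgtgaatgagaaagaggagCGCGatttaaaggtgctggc
Lhx2: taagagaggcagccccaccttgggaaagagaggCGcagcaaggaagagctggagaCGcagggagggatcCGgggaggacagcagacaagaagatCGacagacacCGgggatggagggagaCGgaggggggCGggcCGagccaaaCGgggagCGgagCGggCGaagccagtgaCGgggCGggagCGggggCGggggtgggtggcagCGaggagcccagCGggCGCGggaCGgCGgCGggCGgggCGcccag
The Gbx2 stretch held 18 CpG and was 61.6% G or C, and the Lhx2 stretch held 25 CpG and was 72.8% G or C. Over 32851 such stretches in the RefSeq table the medians were 6 CpG and 52.4%. The 5 genes of the set with an entry (6 stretches, as Lhx2 has 2) held 10 to 25 CpG, all above that median, and Six3 and Cdx2 held the fewest, 10 and 13. The GC box letters GGGCGG, read on both strands, occurred once upstream of Gbx2 and at 4 positions upstream of Lhx2, and in 32.7% of all stretches. CTTTGA (the core that TCF and LEF factors bind), AGGTCA (a nuclear receptor half-site), TAATTA (a homeodomain core) and TATAAA were in none of the 6 stretches, against 13.8%, 14.02%, 4.84% and 12.4% of all. These counts describe the letters of these windows and no measured binding.

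En1 and En2, the Engrailed paralogs of the midbrain and anterior hindbrain, were low in all groups. En2 (chromosome 5, 28492236 to 28498706) was at 1.35 and 1.33 FPKM in wild-type and 0.921 and 0.966 in knockout ESC and 0.579 and 1.03 in wild-type NPC. In knockout NPC it was at 0.103, on about 4 implied fragments, in replicate 1 and listed at 0 in replicate 2. Both values lay below all other libraries, and their deposited intervals lay below those of the wild-type NPC libraries. The change in NPC was -0.77 ± 0.14 (limma adjusted p = 0.00806), a call that quantile normalization ended (-0.45, adjusted p = 0.0523). In ESC the change was -0.27 ± 0.14 (adjusted p = 0.495), and the difference between the 2 effects did not pass (-0.50 ± 0.20, adjusted p = 0.145). From ESC to NPC, En2 fell by 0.38 ± 0.14 in wild type, with an adjusted p of 0.0451 that was lost in 11 of 16 alternatives, and by 0.89 ± 0.14 in knockout (adjusted p = 0.00112).

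En1 (chromosome 1, 122499064 to 122504568) was at 0.636 and 0.471 FPKM in wild-type ESC and at 0.277 and 0.296 in knockout ESC. It was at 0.581 and 1.03 in wild-type NPC and at 0.183 and 0.308 in knockout NPC. Both knockout libraries lay below both wild-type libraries in each stage, on about 5 to 9 implied fragments in the knockout, but the deposited intervals overlapped. En1 passed an FPKM of 1 in 1 library and was not tested. Fitted without the filter its change in NPC was -0.52 ± 0.14 (limma adjusted p = 0.0845) and in ESC -0.27 ± 0.14 (adjusted p = 0.741). Neither passed, so the Engrailed paralogs had values on the same side in NPC, and En2 alone was called.

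Cdx1, a caudal factor and a known target of Wnt and retinoic acid signalling, was the gene with the largest change of level with differentiation. It was at 21.6 and 20.7 FPKM in wild-type ESC and at 30.02 and 28.1 in knockout ESC, above 86.3% to 89.9% of all symbols. In wild-type NPC it was at 0.0520 and 0.0709, which is 1 implied fragment in each library, and in knockout NPC it was listed at 0 in both. The fall from ESC to NPC was called in both genotypes (limma adjusted p = 1.9e-07 in wild type and 1.5e-07 in knockout), with a change of -4.38 ± 0.10 on the log2(FPKM + 1) scale in wild type. No fold is given for the knockout, whose NPC libraries were listed at 0. RNA of this gene was thus at or near the detection limit in NPC of both genotypes. The knockout change there did not pass (-0.09 ± 0.10, limma adjusted p = 0.597). It was called in 1 of 16 alternatives, the pseudocount of 0.1 (-0.69, adjusted p = 0.0418), on 1 implied fragment in each wild-type library.

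In ESC the knockout libraries of Cdx1 lay above the wild-type libraries, 1.37-fold higher in the mean (1.30-fold to 1.45-fold over the pairs), and the deposited intervals of the groups did not overlap. The change of 0.44 ± 0.10 had an unadjusted p of 0.00375 but did not pass (limma adjusted p = 0.196, and 0.130 to 0.524 over the 17 alternatives). The difference between the knockout effects in NPC and ESC missed the threshold for Cdx1 (-0.53 ± 0.15, adjusted p = 0.0514) and passed it in 4 of 16 alternatives, among them the fit with no filter (adjusted p = 0.0304). Cdx1 lies on chromosome 18 from 61178516 to 61195853 (mm9). The trophoblast markers summed to between 27.0 and 31.0 FPKM in the ESC libraries, and 3 of the 10 reached an FPKM of 1 in each. Their part in the Cdx1 level was not tested.

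Cdx2, the paralog that also directs trophectoderm and intestine, stayed low (chromosome 5, 148112476 to 148118825). It was at 0.935 and 0.466 FPKM in wild-type and 0.719 and 1.12 in knockout ESC, 0.952 and 0.791 in wild-type NPC and 1.33 and 2.03 in knockout NPC. The knockout NPC libraries were the highest of the 8, on about 30 and 48.7 implied fragments. The deposited interval of replicate 1 overlapped both wild-type NPC intervals, and that of replicate 2 lay above both. The mean ratio was 1.93, and 1.40 to 2.57 over the pairs. The change of 0.51 ± 0.20 did not pass (limma adjusted p = 0.105), nor did those in ESC (0.18 ± 0.20, adjusted p = 0.764) and from ESC to NPC in wild type (0.15 ± 0.20, adjusted p = 0.516) and knockout (0.48 ± 0.20, adjusted p = 0.0657). Cdx2 was called in knockout NPC with quantile normalization (0.68, adjusted p = 0.0359). The third paralog, Cdx4, was at or below 0.154 FPKM in every library. Gsx1 and Pdx1, the homeobox genes that form the ParaHox cluster with Cdx2 on chromosome 5, were at most 0.205 and 0.493.

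Set side by side, the highest genes of each group stood apart from the next, and many of the low ones overlapped. In wild-type ESC both libraries of Cdx1 (mean 21.2) lay above those of Gbx2 (9.28), and those of Gbx2 above those of En2 (1.34), which lay above Cdx2, Lhx2 and En1 (0.701, 0.580 and 0.553), while these 3 overlapped. In knockout ESC, Cdx1 (29.1) and Gbx2 (7.54) kept these places, and En2 and Cdx2 (0.943 and 0.920) overlapped. In wild-type NPC, Gbx2 (6.13) lay above Lhx2 (1.71), followed by Cdx2, En1 and En2 (0.872, 0.804 and 0.803), which overlapped. In knockout NPC, Lhx2 (5.20), Cdx2 (1.68) and Gbx2 (0.885) followed each other without overlap and lay above En1 (0.246). From En1 down to Six3, Otx1, En2 and Cdx1, each gene overlapped the next.

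**Figure D3:**
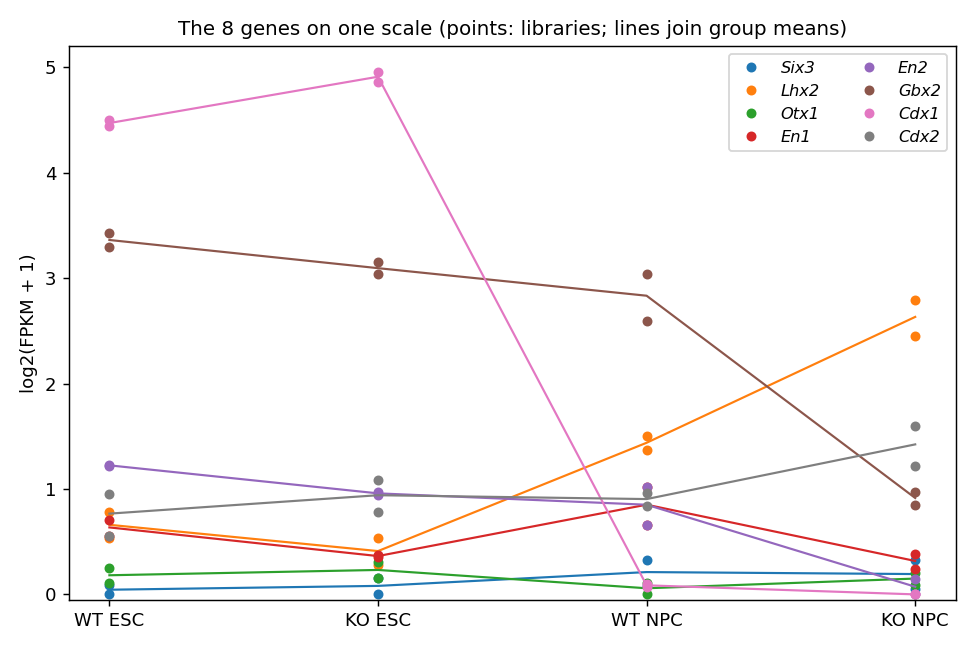
log2(FPKM + 1) (y axis) of the 8 genes in the 4 groups (x axis), with a point per library and a line per gene through the group means. Cdx1 and Gbx2 lead in both ESC groups, and the lines of Lhx2 and Gbx2 cross between wild-type and knockout NPC.

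Other genes of axial patterning were counted in lists chosen with earlier results of these data known, and a gene can be in more than 1 list. For knockout against wild-type NPC the median change of all tested genes was 0.05, and 14.7% of them rose and 12.7% fell. These shares are the background for each list count between the NPC groups below. A gene can pass the filter only through the 2 libraries of the group where it is high, which sets its direction in advance. Among the list genes named below this holds for Pax2, Pax8 and Lhx5 (wild-type NPC) and for Six2 (knockout NPC). Each of them was tested in only 6 of the 8 fits with a library left out. The list counts and medians are therefore descriptive. In the midbrain and isthmus list, 5 of 10 genes were tested, 3 fell, 0 rose and 2 did not pass, with a median of -2.38. Wnt1, the organizer's Wnt ligand, went from 18.2 and 16.6 FPKM to 0.278 and 1.30 (-3.42 ± 0.25, limma adjusted p = 1.3e-04). The paired-box genes Pax2 (-2.47 ± 0.20) and Pax8 (-2.38 ± 0.21) fell as well, and Fgf8 was listed at 0 in all 4 NPC libraries. Gbx2 and En2 fell in the same libraries.

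In the forebrain list, 7 of 18 genes were tested, 1 rose, 3 fell and 3 did not pass, with a median of 0.00. Lhx5, a LIM homeobox gene, went from 9.17 and 8.55 FPKM to 0.207 and 0.386 (-2.93 ± 0.12, limma adjusted p = 2.0e-05). Forebrain genes thus moved in both directions. Six6, Rax and Emx1 were at most 0.249 in any library, and Fezf1 and Fezf2 at most 0.221.

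Of the paralogs of the 8 genes, 5 of 10 were tested in NPC, 3 rose, 0 fell and 2 did not pass, with a median of 0.70. Six2, which lies 58076 bases beyond Six3 in the tables, went from 0.577 and 0.345 FPKM to 10.1 and 4.65 (2.45 ± 0.29, limma adjusted p = 0.00118), while Six3 itself stayed near 0. Six5 rose by 0.70 ± 0.14, a call lost when each of the 4 NPC libraries was left out (adjusted p 0.0108 to 0.0576). Otx2, the antagonist of Gbx2 in the embryo, was listed at 0 in all 4 NPC libraries. In ESC it went from 1.81 and 1.14 to 5.09 and 6.26 (1.44 ± 0.16, adjusted p = 0.0286), a call lost when each of the 8 libraries was left out (adjusted p 0.0598 to 0.209). It was the single called gene in ESC among all lists described here.

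In the hindbrain list, 8 of 11 genes were tested, 2 rose, 3 fell and 3 did not pass (median -0.12). Epha4 rose by 0.89 ± 0.10 and the Iroquois gene Irx3 fell by 2.11 ± 0.18 on the log2 scale, from 11.2 and 16.5 to 2.29 and 2.50 FPKM. In the tail bud list, 5 of 11 were tested, 0 rose, 2 fell and 3 did not pass (median -0.20). The members that fell were Cyp26a1, which degrades retinoic acid (-2.01 ± 0.17), and Gdf11 (-0.61 ± 0.14, lost when each of the 4 NPC libraries was left out, adjusted p 0.0128 to 0.0762). With wild-type differentiation the tail bud list went both ways, with 2 higher and 3 lower (41.6% and 31.1% of all tested genes). Cyp26a1 (5.81 ± 0.17) and Gdf11 (3.21 ± 0.14) rose, opposite to Cdx1, and T, Nkx1-2 and Wnt5b fell. T went from 3.25 and 3.27 FPKM in wild-type ESC to 0.0436 and 0 in wild-type NPC (-2.06 ± 0.15, limma adjusted p = 1.4e-05) and Nkx1-2 from 7.23 and 7.81 to 0.0946 and 0 (-3.02 ± 0.14), and neither was called between the genotypes in either stage.

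Hox genes of groups 5 to 9 include targets that Cdx proteins bind, and all 15 were tested. From ESC to NPC in wild type all 15 rose (41.6% of all tested genes rose), with a median of 4.97 against 0.15 for all genes. In these NPC libraries Cdx1 was near 0 and Cdx2 at 0.952 and 0.791. The days between ESC and NPC were not sampled, so earlier Cdx levels cannot be seen, and a part of Cdx in the Hox changes was not tested. In knockout NPC 11 were lower than in wild type, 1 was higher and 3 did not pass (median -1.59). Hoxb9 (-3.75 ± 0.26), Hoxa6 (-3.13 ± 0.22) and Hoxb7 (-2.34 ± 0.22) fell most in level on this scale, and Hoxc5 rose by 0.43 ± 0.10, a call lost when each of the 4 NPC libraries was left out (limma adjusted p 0.0228 to 0.105). The call for Hoxd8, which was lower, was lost without wild-type NPC replicate 2 or knockout NPC replicate 1 (adjusted p up to 0.0776). The calls for Hoxb9, Hoxa6 and Hoxb7 were kept without each of the 8 libraries.

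Signals that place axial identity were read from their target genes. Of the 9 retinoic acid targets, all tested, 8 rose from ESC to NPC in wild type and 9 in knockout (medians 5.78 and 3.77). Of all tested genes 41.6% rose in either genotype. Between the NPC groups 6 were lower in knockout, 2 higher and 1 did not pass, with Crabp2 (-2.52 ± 0.22) and Cyp26a1 lower and Hoxb1 higher (0.70 ± 0.12). The calls for Rarb and Cyp26b1, both lower, were lost when each of the 4 NPC libraries was left out (limma adjusted p up to 0.0910 and 0.0760). That for Stra8, which was higher, was lost without wild-type NPC replicate 2 or knockout NPC replicate 1 (up to 0.0657). Of 11 Wnt targets, 10 were tested, and 6 were lower in knockout NPC, 1 higher and 3 did not pass (median -0.83). Nkd1 (-2.21 ± 0.12), Axin2 (-1.48 ± 0.24) and Lef1 (-1.45 ± 0.26) were lower. The 1 higher gene, Rnf43 (0.53 ± 0.15), lost its call in 6 of 8 fits with a library left out, all but those without a knockout ESC library (limma adjusted p 0.0367 to 0.157). In ESC none of the 9 retinoic acid targets and none of the 10 tested Wnt targets was called in limma. At an unadjusted p under 0.05 there were 3 and 0 of them, and 1686 of all 13318 tested genes.

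**Figure D4:**
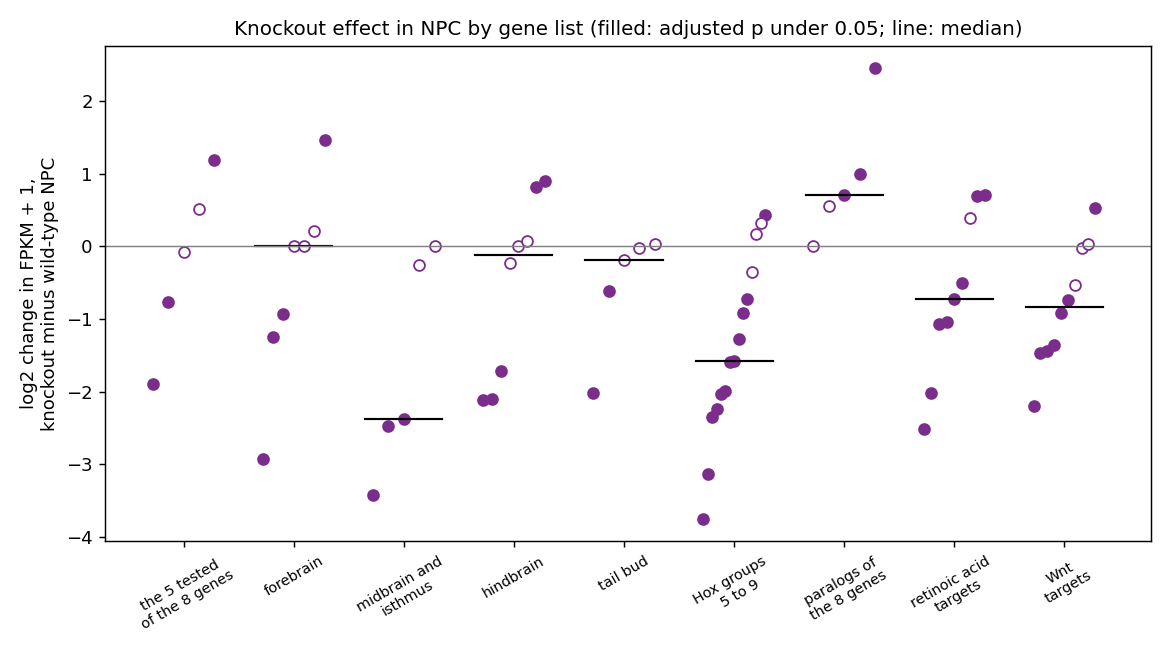
Knockout minus wild-type NPC in log2(FPKM + 1) (y axis) for the 5 tested axial identity genes and the tested members of each list (x axis). Filled points have an adjusted p under 0.05 and black lines are list medians, at -2.38 for the midbrain and isthmus list and -1.59 for Hox groups 5 to 9.

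Markers of cell types moved between the NPC groups as well, where 14.7% of all tested genes rose and 12.7% fell in knockout. In bulk RNA, fewer cells of a type and less RNA per cell cannot be told apart. The 8 neuronal markers summed to 370 and 394 FPKM in wild-type and to 14.5 and 20.7 in knockout NPC, and all 8 fell. They summed to between 123 and 127 in the ESC libraries, above knockout NPC, so the sum does not measure neurons alone. Of the 9 neural progenitor markers 8 fell and 1 did not pass. The 9 mesoderm markers summed to between 25.7 and 30.02 in wild-type and between 114 and 132 in knockout NPC (6 of 7 tested rose), with Mesp1 at 0 in every library. The 8 endothelial and blood markers summed to between 89.4 and 118 and between 855 and 1052 (7 of 7 tested rose). The 10 gut endoderm markers summed to between 12.5 and 13.2 and between 23.0 and 26.6 (5 of 6 tested rose, 1 fell). The 10 trophoblast markers summed to between 16.9 and 18.0 and between 19.3 and 20.1 (0 of 5 tested called in limma). Of these 5, 1 had an unadjusted p under 0.05, as did 5188 of all 13318 tested genes between the NPC groups. The 9 genes listed as feeder fibroblast markers summed to between 98.6 and 111 and between 70.3 and 83.1 (0 rose, 6 fell). They summed to at most 2.52 in the ESC libraries, so the list name does not identify feeder cells in NPC. The cells that gave this RNA in NPC were not identified. The 7 glial markers summed to between 4.92 and 5.70 and between 4.72 and 5.04 (0 of 2, 0 at an unadjusted p under 0.05). The part of these cell types in the changes of Lhx2, Gbx2 and En2 was not tested.

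The nearest listed gene on each side of the 8 genes was read too, a choice made after the data were examined. Of 16 such neighbours 10 were tested, and in knockout NPC 2 rose and 2 fell, where 14.7% and 12.7% of all tested genes did. Beside Six2, the gene that rose was Dennd1a, 51896 bases from Lhx2, from 4.71 and 3.96 FPKM to 10.7 and 9.09 (1.03 ± 0.20, limma adjusted p = 0.00978, lost without wild-type NPC replicate 2 or knockout NPC replicate 1, adjusted p 0.00854 to 0.0651). The genes that fell were Cnpy1, 33296 bases from En2, from 0.426 and 0.475 to 0 and 0 (adjusted p = 0.0205), and Agap1, 32679 bases from Gbx2 (-0.46 ± 0.11, adjusted p = 0.0222). Both were lost when each of the 4 NPC libraries was left out (adjusted p up to 0.0936 and 0.104). The neighbours on the other side of Lhx2 and En2 were not called, Nek6 at 0.10 (adjusted p = 0.677) and Insig1 at -0.08 (adjusted p = 0.658). Slc6a7, 4662 bases from Cdx1, stood at 1.63 to 2.88 in the ESC libraries and at most 0.0256 in NPC. Pdgfrb, 8950 bases from Cdx1 on the other side, went the other way. It rose from ESC to NPC by 2.18 ± 0.21 in wild type (limma adjusted p = 5.9e-05) and by 1.73 ± 0.21 in knockout (adjusted p = 2.1e-04). Of the 10 tested neighbours, 6 rose and 3 fell in wild-type differentiation, where 41.6% and 31.1% of all tested genes did.

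The genes with the most similar course over the 8 libraries were found by Pearson correlation of log2(FPKM + 1) among 9292 genes with a mean of at least 5 FPKM in their highest group. For Gbx2 they were Cyb5r4 (r = 0.990), the zinc-finger gene Sall1 (0.989) and Twf1 (0.985). Sall1 stood at 31.2 and 30.04 FPKM in wild-type ESC, 15.8 and 14.5 in wild-type NPC and 2.08 and 3.04 in knockout NPC. For Lhx2 they were Ctdsp1, Cdk19 and Stom (each r = 0.996), and for Cdx1 they were Myh13, Trpm1 and the germline DNA methylation cofactor Dnmt3l (r = 0.9998, 0.9995 and 0.9994). These values describe 8 libraries that share 4 groups, and 1517 genes reached r of 0.95 with Cdx1, 327 with Lhx2 and 39 with Gbx2.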

How the data were processed

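Per the submitters' processing notes, the authors used TopHat2 2.1.1 and Cufflinks 2.2.1 with mm9, and the annotation is not given in the sources used here. The deposited tables give FPKM per gene with a 95% interval, and no counts, so the number of fragments was inferred: for a gene with 1 start site the upper bound lies 2 square roots of its fragment number above its FPKM. For genes with fewer than 5 implied fragments, 66.9% to 71.5% of these numbers per library were within 0.05 of a whole number. Lhx2 has 2 start sites in the tables, for which this was not checked, so no fragment number is given for it. For Six3 and Otx1 some implied numbers were far from whole, down to 0.00248 and 0.0178, so their fragment numbers are approximate. These intervals cover counting error and no spread between cultures.

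Each table holds 24854 entries. Entries that share a symbol (285 symbols) were summed, and 12 symbols with a failed estimate were left out, which left 24306. limma 3.58.1 in R 4.3.3 fitted 4 group means with a variance trend (4 residual degrees of freedom) to log2(FPKM + 1) of 13318 genes, with two-sided tests and Benjamini-Hochberg adjustment per contrast at 0.05. Each genotype was compared across stages and each stage across genotypes, and a further contrast took the NPC effect of the knockout minus its ESC effect. The script was tested on simulated data. The members, gene lists and naming rule were chosen with earlier results of these data known. All 8 members are named, and per list and direction up to 3 called genes with the largest change and a mean FPKM of at least 5 in the higher group, or otherwise the 1 with the smallest p. Genes named beside these (Fgf8, Six6, Rax, Emx1, Fezf1, Fezf2, T, Nkx1-2, Otx2, Cdx4, Gsx1, Pdx1 and the neighbours) were chosen after their values were seen. Some genes that this rule names are not reported here. Lists were not tested as sets. Upstream sequences are from RefSeq (GRCm38.p6), and gene positions are those of the tables (mm9). Each library was left out in turn, and the fit was repeated with the replicate number as a block, without the variance trend and on the compared groups alone. Other scalings (quantile, median-ratio), filters (none, FPKM of 5), a pseudocount of 0.1 and the use of 1 entry per symbol were tried too.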

Additional observations from a re-analysis of the deposited data

Results flagged for a closer look

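The knockout effect differed between NPC and ESC for 2 of the 5 tested genes, by the test of the difference itself (limma over all 8 libraries). Of all tested genes 16.8% were called in this comparison. Six3, Otx1 and En1 were not tested. For Lhx2 the effect was higher in NPC than in ESC by 1.44 ± 0.24 on the log2(FPKM + 1) scale (adjusted p = 0.00881), and both knockout NPC libraries lay above both wild-type NPC libraries while in ESC the knockout libraries lay below the wild-type ones by a narrow gap, the closest pair at 0.4447 and 0.4456 FPKM, and the deposited intervals overlapped. For Gbx2 the difference was -1.64 ± 0.23 (adjusted p = 0.00458), with knockout below wild type in both stages. Both calls were kept in each alternative that tested these genes (adjusted p 0.00752 to 0.0436 for Lhx2 and 0.00455 to 0.0287 for Gbx2). With 2 libraries a group, single outlying libraries could not be tested.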

How the results depend on the processing

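Of 399 values of the 5 tested genes under the alternatives, 376 kept their direction or their lack of a call and their side of the threshold, 16 lost a call, 7 gained one and none reversed a called direction. The number of genes called in wild-type differentiation fell from 4 to 2 without the filter on low values and with an FPKM minimum of 5, where fewer of the genes were tested. That minimum also gave 2 in knockout differentiation (4 before) and 1 in knockout against wild-type NPC (3 before). With 1 library left out, wild-type differentiation called 2 to 3, knockout differentiation 4 to 5, the NPC comparison 3, the difference between the effects 2 and the ESC comparison 0. Median-ratio scaling moved the median change of all genes from 0.15 to 0.04 in wild-type differentiation and from 0.17 to 0.03 in knockout differentiation, and quantile normalization moved them to -0.01 and 0.00, so the smaller changes of En2, Gbx2 and Lhx2 with differentiation are to be read relative to these shifts. The cause of the lost calls was not tested.

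Over all genes, the ESC comparison called 33, 8 to 16 without 1 of the ESC or knockout NPC libraries, and 26 without either wild-type NPC library. The NPC comparison called 3648, and 1994 to 2275 without 1 of the NPC libraries, and the difference between the effects 2237, and 1072 to 1480. Same-numbered libraries deviated together by a correlation of -0.05 to 0.18 over pairs of groups, and the main fit did not pair them. These values cannot exclude a shared batch or culture, which the labels do not describe. The replicate block gave 3 called genes in wild-type differentiation (En2 lost, adjusted p = 0.0602), 4 in knockout differentiation, 3 in the NPC comparison, 2 for the difference between the effects and 0 in ESC, with 15 genes called in ESC over all genes. Genes near an FPKM of 1 rest on few fragments, which limits what can be seen of Six3 and Otx1, at no more than 9.28 and 5.98 implied fragments in any library.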
